A study of Mus musculus with 16 samples.

Results

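The nuclear-encoded subunits of respiratory complex I were examined as 36 Nduf genes in the mouse left ventricle, 36 of the 55487 genes in each count table. The rule takes genes by symbol and sets no threshold on a measured value, although the list was drawn up with earlier results of these data known. All 36 had a row and were expressed. The study compared 8 libraries from multiparous mice, which had more than 3 pregnancies, with 8 libraries from virgin mice. All mice were C57Bl/6J aged 24 months without any treatment, and RNA came from the mid section of the left ventricle. The time since the last pregnancy is not given in the labels, and 1 strain, 1 age and 1 section of the ventricle were sampled.

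Complex I is the entry point of the mitochondrial respiratory chain: it takes electrons from NADH, passes them along a flavin and a row of iron-sulfur clusters to ubiquinone, and pumps protons as it does so. Its L shape has a peripheral arm in the matrix, which holds the redox centres, and an arm in the inner membrane, which holds the pumps. A few of its subunits are made from mitochondrial DNA and all others from nuclear genes, so that both genomes must supply it. Heart muscle is among the tissues richest in this enzyme. The comparison asks whether past pregnancies are still visible in the transcripts that supply it in old age.

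In short, no subunit gene differed between multiparous and virgin hearts past the threshold, while most had slightly lower means in multiparous hearts. Levels are in CPM, counts scaled to the same total in each library with TMM factors (trimmed mean of M-values). Group was tested with edgeR's quasi-likelihood F-test on 17813 genes, with Benjamini-Hochberg adjusted p called under 0.05. At that threshold 0 of the 36 members were called, against 2 of all tested genes (0.0112%), a count of genes that ran from 0 to 55 with 1 library left out. The members' adjusted p in edgeR ran between 0.417 and 0.999. DESeq2, which called 254 genes in all, and limma voom also called 0 members. A log2 fold change below 0 was found for 34 of the 36 members (28 without scaling factors), against 51.4% of all tested genes. The members' median was -0.07, against -0.003 over all tested genes, and 24.3% of all tested genes lay below the members' median. With 1 library left out the members' median ran from -0.09 (without virgin 1) to -0.04 (without virgin 8). The members' values ran between -0.13 and 0.05. At an unadjusted p under 0.05 stood 4 members, Ndufa10, Ndufa9, Ndufs6 and Ndufb9, all lower, against 4.09% of all tested genes lower at that level. This count became 13 without virgin 1, 8 without virgin 7 or multiparous 3, and 1 without virgin 2, 3, 6 or 8 or without multiparous 6, 7 or 8. The 95% intervals of these 4 lay below 0 and those of the other 32 held 0, and over all members the bounds ran between -0.25 and 0.21. The multiparous and virgin libraries overlapped in every member, whereas multiparous libraries all lay below the virgin ones in 0.0168% of all tested genes. Members share libraries and vary together, so that 34 is not a count of independent events. In bulk tissue, fewer cardiomyocytes and less of these transcripts per cardiomyocyte cannot be told apart.

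The gene counts per library lay between 34560606 and 58890976 in 15 libraries and came to 228325238 in virgin 8. The lowest count of any member in any library was 1610, so counting error was small beside the spread between libraries. The coefficient of variation of the members had a median of 6.25% over multiparous and 7.91% over virgin libraries. All 11 cardiomyocyte markers were present in every library, with at least 48902 counts each. Their summed level was 78184 ± 5690 CPM in multiparous libraries and 80408 ± 8553 CPM in virgin ones (SD, n = 8 each). No label states that libraries and animals correspond 1 to 1, and p-values thus reflect the spread among the sequenced libraries, which may be technical.

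The libraries' codes limit the comparison. Of the multiparous library names, 4 carry the code P and 4 the code MP, neither of which is explained, and all virgin libraries carry AA. Parity and a difference tied to these codes therefore cannot be told apart. Kidney tubule markers moved with the groups and with the codes: their summed level lay between 0.789 and 2.69 CPM in P-coded, between 5.29 and 15.5 CPM in MP-coded and between 3.90 and 96.6 CPM in virgin libraries. Some of these markers were chosen with results of these data known, so their shared direction is no independent evidence. Multiparous over virgin, 10 of the 10 tested markers (of 11 listed) had a log2 fold change below 0 and 0 were called. P-coded over virgin, 8 were called, against 0.298% of all tested genes. MP-coded over P-coded, 9 of the 10 lay above 0 and 0 were called. Cltrn, Slc34a1, Slc12a1, Slc7a12 and Slc22a8, of this list, were at 0 in some libraries. With the kidney sum as a covariate, 29 of 36 members had a log2 fold change below 0, Ndufa13 now among them, with a median of -0.06 and 0 called. The kidney sum itself averaged 6.09 CPM in multiparous and 47.7 CPM in virgin libraries, so this fit cannot separate it from parity.

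Of the members, 33 matched a promoter in RefSeq's table (GRCm38.p6), which holds 250 bases before and 50 bases after the start site of each of 32851 promoters. Ndufa2, Ndufb9 and Ndufs1 had no entry. Windows were searched on both strands for letters taken from 6 motifs: a pair of GCGC with any 2 bases between them for NRF1, CCGGAAG for GABPA, AAGATGGCG for YY1, AAGGTCA for the estrogen-related receptors, GGGCGG for the SP family and TATAAA for the TATA box. Members were counted per gene, by a match in any of their 35 entries, whereas all promoters were counted per entry. The NRF1 letters occurred in 9 of the 33 members (27.3%) and in 6.23% of all promoters. The YY1 letters occurred in 5 members (15.2%), namely Ndufa9, Ndufc1, Ndufs4, Ndufs6 and Ndufs7, and in 1.40% of all promoters. At least 1 of the first 4 motifs was present in 18 of the 33 members and in 19.1% of all promoters. The SP letters were in 45.5% of members and 35.7% of all promoters, and the GABPA letters in 12.1% of members and 8.86% of all. The estrogen-related receptor letters were in 9.09% of members and 4.72% of all promoters, and the TATA letters in 12.1% of members and 13.6% of all. The median GC content was 59.0% for the members' windows and 52.7% for all windows. A match describes letters only and shows no binding.

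The windows of 6 members are printed because the values below turn on these genes. Ndufa10, Ndufa9 and Ndufs6 have the smallest p of the members with an entry. Ndufv2 is an example from the catalytic core and does not represent its other windows. Ndufa13 and Ndufc2 are the only members with a log2 fold change above 0 under TMM scaling. Each runs 5′ to 3′ along its gene's strand, and capitals mark the letters of the 6 motifs on either strand.
Ndufa10 (chr1:92473709-92474008, minus strand): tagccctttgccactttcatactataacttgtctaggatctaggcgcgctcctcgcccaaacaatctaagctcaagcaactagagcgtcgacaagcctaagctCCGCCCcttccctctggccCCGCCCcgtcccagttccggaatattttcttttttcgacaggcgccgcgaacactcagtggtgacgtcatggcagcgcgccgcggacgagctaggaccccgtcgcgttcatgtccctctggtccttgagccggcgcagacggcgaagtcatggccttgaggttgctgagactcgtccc
Ndufa9 (chr6:126849095-126849394, minus strand): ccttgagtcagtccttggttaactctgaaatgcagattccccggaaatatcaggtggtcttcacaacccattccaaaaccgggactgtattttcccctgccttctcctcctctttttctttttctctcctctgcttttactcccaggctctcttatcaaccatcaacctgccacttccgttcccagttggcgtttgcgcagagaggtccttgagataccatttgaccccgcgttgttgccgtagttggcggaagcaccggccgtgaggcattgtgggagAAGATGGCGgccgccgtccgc
Ndufs6 (chr13:73328433-73328732, minus strand): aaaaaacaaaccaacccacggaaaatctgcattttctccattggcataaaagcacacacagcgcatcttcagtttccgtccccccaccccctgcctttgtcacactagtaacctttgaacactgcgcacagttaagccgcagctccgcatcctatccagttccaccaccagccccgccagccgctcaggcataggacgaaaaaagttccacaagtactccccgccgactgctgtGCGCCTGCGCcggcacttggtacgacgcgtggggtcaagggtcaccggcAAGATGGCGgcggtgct
Ndufv2 (chr17:66101510-66101809, minus strand): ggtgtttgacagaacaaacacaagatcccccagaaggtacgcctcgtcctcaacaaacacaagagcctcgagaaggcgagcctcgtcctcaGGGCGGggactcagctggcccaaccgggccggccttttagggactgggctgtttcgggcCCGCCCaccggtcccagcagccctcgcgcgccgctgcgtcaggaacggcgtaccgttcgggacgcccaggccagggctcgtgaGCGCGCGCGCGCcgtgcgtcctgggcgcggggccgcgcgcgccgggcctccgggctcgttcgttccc
Ndufa13 (chr8:69901971-69902270, minus strand): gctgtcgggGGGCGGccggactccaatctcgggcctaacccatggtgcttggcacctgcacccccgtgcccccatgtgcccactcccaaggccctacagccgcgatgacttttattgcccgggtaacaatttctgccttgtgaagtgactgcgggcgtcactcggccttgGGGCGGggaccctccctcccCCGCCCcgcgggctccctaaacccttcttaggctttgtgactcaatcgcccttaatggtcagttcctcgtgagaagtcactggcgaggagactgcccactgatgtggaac
Ndufc2 (chr7:97399753-97400052, plus strand): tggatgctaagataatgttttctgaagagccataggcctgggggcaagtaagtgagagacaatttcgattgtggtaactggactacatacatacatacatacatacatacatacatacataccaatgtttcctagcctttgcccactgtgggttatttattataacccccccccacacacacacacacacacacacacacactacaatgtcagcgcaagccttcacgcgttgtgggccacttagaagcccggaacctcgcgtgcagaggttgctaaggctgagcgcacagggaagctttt
In the Ndufs6 window the NRF1 letters begin at -16 and the YY1 letters at 33, counted in bases from the start site, and in the Ndufa9 window the YY1 letters begin at 29. The Ndufv2 window holds 2 overlapping NRF1 matches, which begin at -17 and -15, and 2 SP matches. No other core member with an entry had the NRF1 letters, and the Ndufv1 window had no letters of any of the 6 motifs. The Ndufa10 window holds 2 SP matches and the Ndufa13 window 3, with none of the other motifs. The whole Ndufa13 window lies inside the gene as annotated by GENCODE (69894180 to 69902558), so the start sites of RefSeq and GENCODE differ. No letters of the 6 motifs were found in the Ndufc2 window.

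Per kilobase of merged exon, the members' mean levels over all 16 libraries spanned 18.4-fold around a median of 106 CPM per kb, and 25 of the 36 lay within 2-fold of that median. Ndufb9, a small membrane-arm protein of the LYR family, was highest at 239 CPM per kb in multiparous and 259 CPM per kb in virgin hearts. Ndufa4, which copurifies with complex I and was later assigned to cytochrome c oxidase, came next at 220 CPM per kb in multiparous and 234 CPM per kb in virgin hearts. Libraries of these neighbours overlap. Ndufb7 and Ndufb2, both of the distal membrane arm, had the lowest levels, 13.5 and 14.0 CPM per kb over all libraries, and they overlap as well. These low places rest on the annotation: Ndufb7 has 4522 bases of merged exon but a longest coding transcript of 623 bases, by which its level is 98.2 CPM per kb. Ndufb2 stayed low by its longest coding transcript, at 18.01 CPM per kb over 4371 bases. That transcript is the longest of all 36 members, so this low place rests on the annotation by both lengths. The members lie on 15 chromosomes, with at most 5 on any one.

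**Figure D1:**
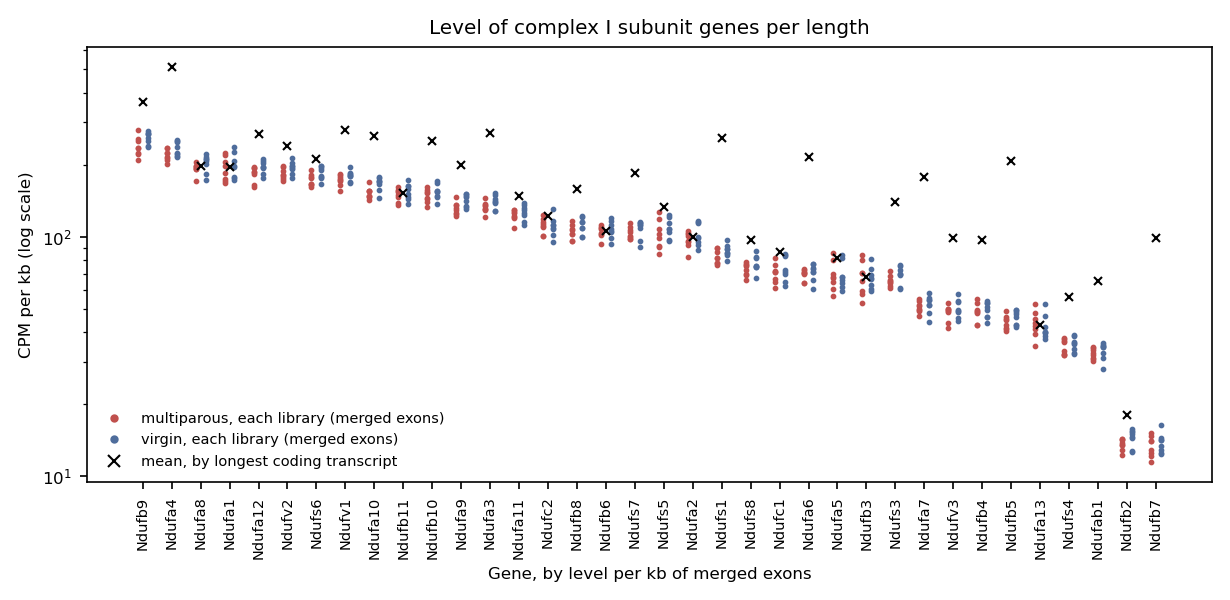
Level of each of the 36 members in CPM per kb of merged exon (log axis), genes ordered by their mean, with 1 dot for each multiparous and each virgin library and a cross for the mean level by the longest coding transcript. Ndufb9 and Ndufa4 lead by both lengths, and the multiparous and virgin dots of every gene overlap.

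The catalytic core of the peripheral arm carries electrons from NADH to ubiquinone, and all 6 of its members here had a log2 fold change below 0, with a median of -0.08 and none called. Their summed level was 1928 ± 86.1 CPM in multiparous libraries and 2032 ± 117 CPM in virgin ones. Ndufv1 binds NADH and the flavin (chromosome 19, 4007384 to 4012806, minus strand). Its lowest, median and highest levels were 408.5, 455.9 and 479.5 CPM in multiparous and 440.2, 475.1 and 516.6 CPM in virgin hearts. The ranges overlap, and the log2 fold change was -0.07 (SE 0.04, edgeR adjusted p = 0.745).

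Ndufv2, the partner of Ndufv1 with an iron-sulfur cluster of its own, lies on chromosome 17 at 66078638 to 66101559, minus strand. Its lowest, median and highest levels were 367.2, 388.8 and 424.4 CPM in multiparous and 375.8, 418.6 and 457.8 CPM in virgin hearts. The virgin median lay inside the multiparous range, and the log2 fold change was -0.08 (SE 0.04, edgeR adjusted p = 0.676). Ndufs1 is the largest subunit and holds several iron-sulfur clusters (chromosome 1, 63143596 to 63176833, minus strand). It measured 617.9, 656.6 and 723 CPM at its lowest, median and highest in multiparous hearts, against 639, 704.5 and 780.3 CPM in virgin hearts. Its log2 fold change was -0.08 (SE 0.05, edgeR adjusted p = 0.693), with overlapping groups.

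The other core members sit nearer to ubiquinone. Ndufs3, a core subunit without a redox centre, measured 132.3, 141.5 and 156.6 CPM at its lowest, median and highest in multiparous hearts, against 131.2, 152.1 and 165 CPM in virgin hearts. Ndufs7, which holds the last iron-sulfur cluster before ubiquinone, measured 167.6, 176.2 and 196.1 CPM in multiparous hearts, against 155, 191.7 and 196.9 CPM in virgin hearts. Ndufs8, which carries the clusters before that one, measured 84.9, 95.76 and 101.2 CPM in multiparous hearts, against 86.26, 96.92 and 112 CPM in virgin hearts. For Ndufs3 and Ndufs7 the lowest library was a virgin one, and for all 3 genes the multiparous range lay almost wholly within the virgin range. Their log2 fold changes were -0.08, -0.05 and -0.08, with edgeR adjusted p between 0.748 and 0.850. Of the exonic sequence of Ndufs3, 35.8% of 50-base words also occur in other genes, mostly in Gm12251, so that its count is uncertain.

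The accessory subunits of the peripheral arm surround the core and stabilise it. All 9 (6 without scaling factors) had a log2 fold change below 0, with a median of -0.07 and none called, and their summed level was 1309 ± 69.7 CPM in multiparous libraries and 1379 ± 90.1 CPM in virgin ones. Ndufa9, which binds a nucleotide and sits by the ubiquinone site, lies on chromosome 6 at 126821721 to 126849136, minus strand. Its lowest, median and highest levels were 256.6, 274.2 and 308.8 CPM in multiparous and 274.2, 301.9 and 316.3 CPM in virgin hearts. The multiparous median thus lay at the lowest virgin library. The log2 fold change was -0.11 (SE 0.04, 95% interval -0.20 to -0.01, edgeR adjusted p = 0.527).

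Ndufs6, a zinc-binding subunit needed late in the assembly of the arm, lies on chromosome 13 at 73319838 to 73328542, minus strand. It measured 144.2, 153.3 and 170.6 CPM at its lowest, median and highest in multiparous hearts, against 148.9, 165.5 and 177.7 CPM in virgin hearts. The groups overlap, and the log2 fold change was -0.10 (SE 0.04, 95% interval -0.19 to -0.003, edgeR adjusted p = 0.599). Ndufa12, an accessory subunit related to the assembly factor Ndufaf2, lies on chromosome 10 at 94198720 to 94221443, plus strand. It measured 253.9, 291.5 and 307.4 CPM in multiparous hearts, against 276.4, 306.1 and 330.6 CPM in virgin libraries (log2 fold change -0.10, SE 0.05, edgeR adjusted p = 0.651). Of the 50-base words of Ndufa12, 26.2% also occur in other genes, mostly in Gm15920. The other members of this group, Ndufv3, Ndufs4, Ndufa2, Ndufa5, Ndufa6 and Ndufa7, had log2 fold changes between -0.07 and -0.004. Ndufs4, whose loss causes a Leigh-like encephalopathy in mice, measured 93.9 ± 6.90 CPM in multiparous libraries and 95.9 ± 6.52 CPM in virgin ones.

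The proximal membrane arm joins the peripheral arm to the first pumps. Of its 9 members, 7 had a log2 fold change below 0 and 2 above 0, with a median of -0.07 and none called. Ndufa10, which has a fold like that of nucleoside kinases and faces the matrix, lies on chromosome 1 at 92439010 to 92473860, minus strand, and had the smallest p of all members. Its lowest, median and highest levels were 474.6, 503.9 and 562.5 CPM in multiparous and 482.2, 565 and 593.3 CPM in virgin hearts. All 8 multiparous libraries lay below the virgin median, but the lowest virgin library lay near the bottom of the multiparous range. The mean was 507 ± 26.8 CPM in multiparous libraries and 555 ± 36.6 CPM in virgin ones (SD, n = 8 each). The log2 fold change was -0.13 (SE 0.05, 95% interval -0.22 to -0.03, edgeR adjusted p = 0.417).

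Ndufa13, also known as GRIM-19, is a membrane subunit needed for assembly and lies on chromosome 8 at 69894180 to 69902558, minus strand. It measured 43.55, 53.86 and 65.29 CPM at its lowest, median and highest in multiparous hearts, against 46.72, 49.81 and 65.09 CPM in virgin hearts. The multiparous range covers the virgin one, and the log2 fold change was 0.05 (SE 0.08, edgeR adjusted p = 0.928). It ran from 0.006 (without multiparous 2) to 0.10 (without virgin 8) over all libraries left out, and with the kidney sum as a covariate it was -0.004. Ndufc2, a small subunit of the membrane arm, lies on chromosome 7 at 97400003 to 97407802, plus strand. It measured 75.92, 84.01 and 93.07 CPM in multiparous hearts, against 71.66, 83.18 and 98.18 CPM in virgin libraries (log2 fold change 0.01, SE 0.06, edgeR adjusted p = 0.986). Its value lay below 0 without multiparous 2 (-0.002), multiparous 3 (-0.01), virgin 1 (-0.02) or virgin 4 (-0.006). Of Ndufa13, 375 exonic bases lie opposite Tssk6, and the strand setting of the counting is not given. The other 6 members of the group, Ndufa1, Ndufa3, Ndufa8, Ndufa11, Ndufc1 and Ndufs5, had log2 fold changes between -0.09 and -0.04.

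The distal membrane arm holds the farthest pumps and the small B-series subunits around them. All 11 members (8 without scaling factors) had a log2 fold change below 0, with a median of -0.05 and none called, and their summed level was 1683 ± 109 CPM in multiparous libraries and 1763 ± 119 CPM in virgin ones. Ndufb9 lies on chromosome 15 at 58933756 to 58939488, plus strand. Its lowest, median and highest levels were 216.5, 242.3 and 288.3 CPM in multiparous and 245, 271.2 and 285.2 CPM in virgin hearts. The multiparous median lay just under the lowest virgin library, while the highest library of all was a multiparous one. The log2 fold change was -0.12 (SE 0.05, 95% interval -0.23 to -0.003, edgeR adjusted p = 0.602). Ndufb9 shares 201 exonic bases with Gm49356 on the same strand and 23.4% of its 50-base words with other genes, which makes its count uncertain.

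Ndufb2 was the only member whose virgin mean exceeded every multiparous library. It measured 68.67, 76.62 and 80.49 CPM at its lowest, median and highest in multiparous hearts, against 70.75, 82.99 and 88.1 CPM in virgin libraries (log2 fold change -0.09, SE 0.05, edgeR adjusted p = 0.676). Its exons share 145 bases with Gm42420 on the same strand and lie opposite Braf and Gm16272 over 302 bases. Ndufb7 measured 51.62, 60.49 and 68.19 CPM in multiparous hearts, against 55.94, 62.04 and 73.45 CPM in virgin libraries (log2 fold change -0.05, SE 0.06, edgeR adjusted p = 0.908). Over all libraries left out, the value of Ndufb7 ran from -0.07 (without multiparous 4) to -0.006 (without virgin 8). Ndufab1, the mitochondrial acyl carrier protein that sits in both arms, measured 223 ± 11.2 CPM in multiparous libraries and 229 ± 18.04 CPM in virgin ones. The other members, Ndufb3, Ndufb4, Ndufb5, Ndufb6, Ndufb8, Ndufb10 and Ndufb11, had log2 fold changes between -0.08 and -0.002. Ndufb3 had the widest relative spread of the members over multiparous libraries, with a coefficient of variation of 16.1%, and measured 51.5 ± 8.27 CPM in multiparous libraries and 51.5 ± 5.38 CPM in virgin ones.

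Ndufa4, set apart from the arms, lies on chromosome 6 at 11900292 to 11907497, minus strand. It measured 277.3, 303.2 and 325.5 CPM at its lowest, median and highest in multiparous hearts, against 296.2, 317.9 and 351.5 CPM in virgin hearts. The groups overlap between the lowest virgin and the highest multiparous library, and the log2 fold change was -0.09 (SE 0.05, edgeR adjusted p = 0.663). Its paralog Ndufa4l2, a gene induced by low oxygen, measured 11.9 ± 1.09 CPM in multiparous libraries and 11.1 ± 1.47 CPM in virgin ones (log2 fold change 0.10, edgeR adjusted p = 0.802).

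**Figure D2:**
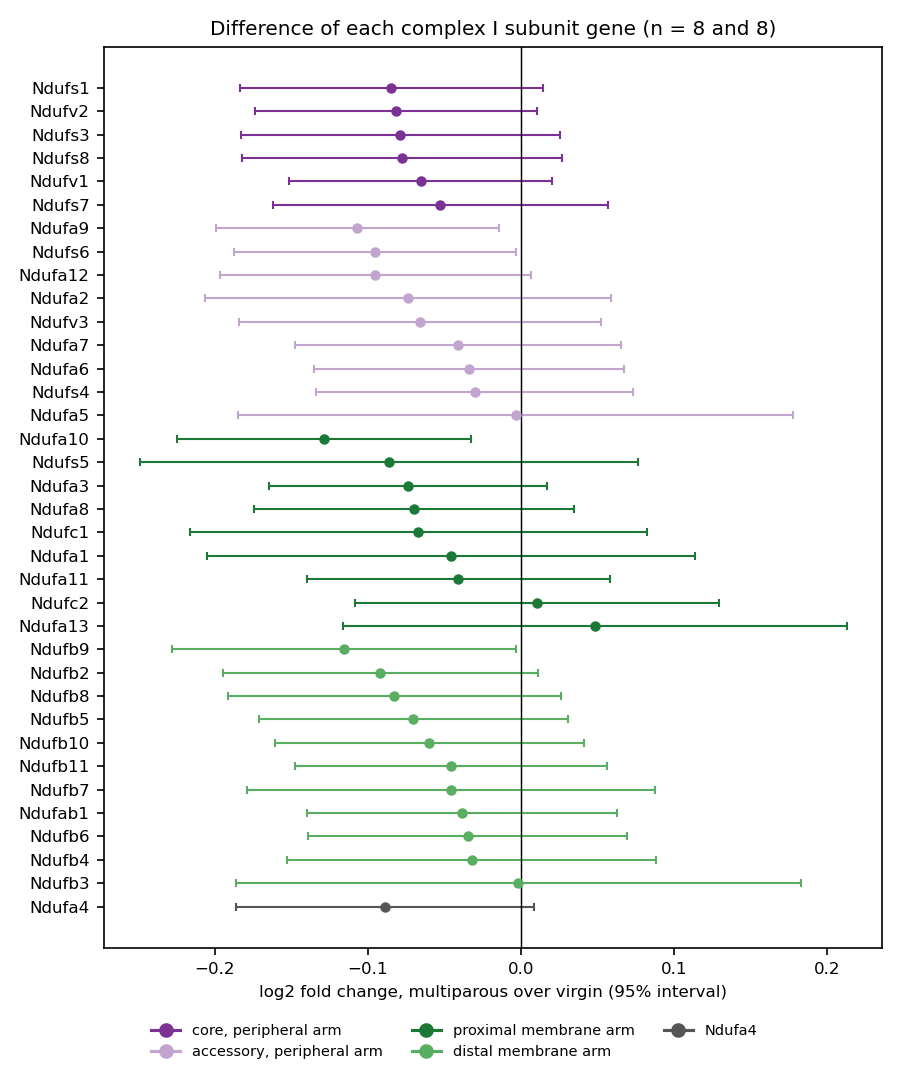
Log2 fold change, multiparous over virgin, of each of the 36 members from edgeR, with its 95% interval, grouped by place in the complex (8 libraries in each group). The points of 34 members lie left of 0 (28 without scaling factors), and the intervals of Ndufa10, Ndufa9, Ndufs6 and Ndufb9 alone do not reach it.

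Within both groups, libraries stood high or low across nearly all members at once. Virgin 1 lay below the mean of all 16 libraries in 36 of 36 members and virgin 7 in 34. Virgin 8 did so in 0, virgin 2 in 1, virgin 3 in 4 and virgin 6 in 9. Among multiparous hearts, library 6 lay below that mean in 34 members, libraries 7 and 8 in 33 each and library 5 in 30, whereas library 3 did so in 3. Virgin 8, the deepest library, was the highest of all 16 in 15 members. Each group thus holds libraries that are low and libraries that are high throughout the complex, though low ones were more often multiparous and high ones more often virgin.

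**Figure D3:**
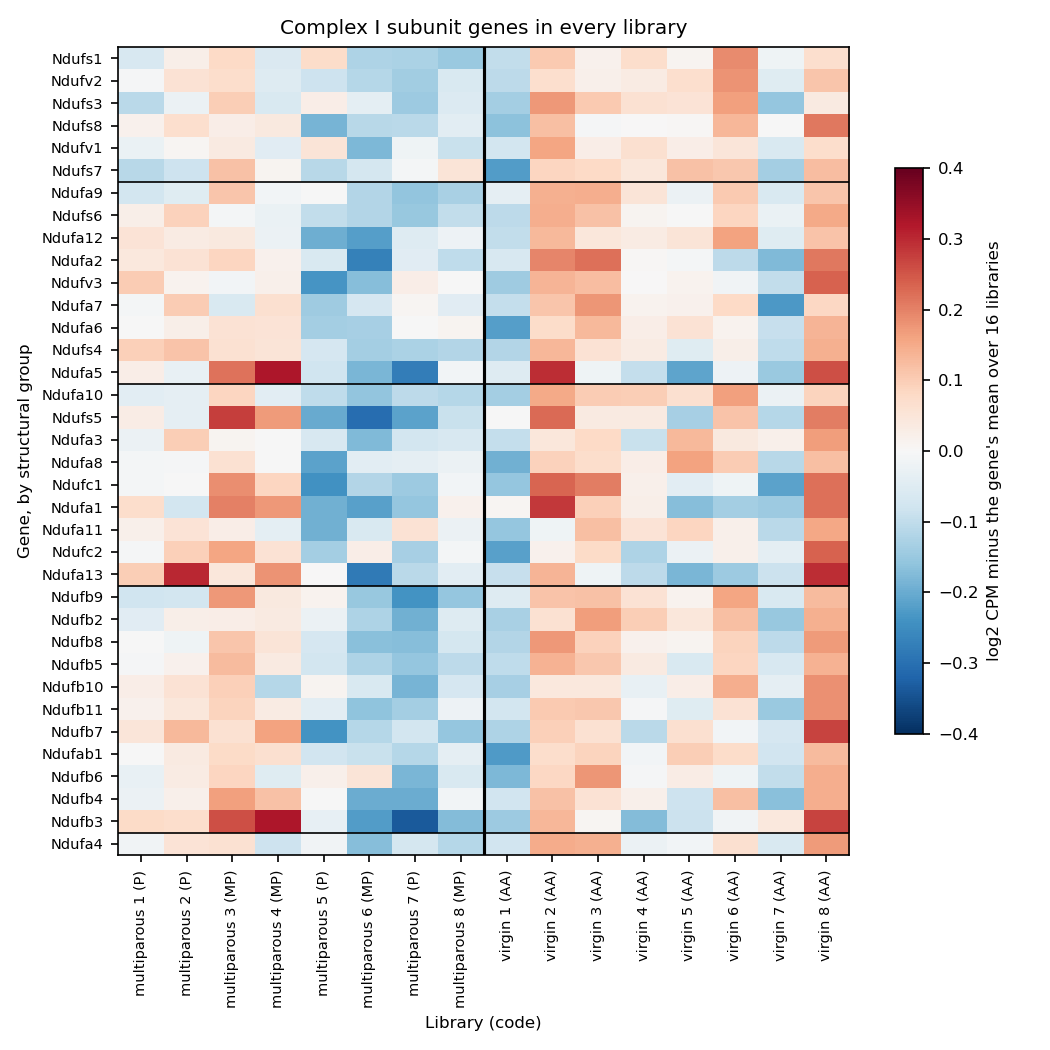
Log2 CPM of each of the 36 members (rows, by place in the complex) in each of the 16 libraries (columns, multiparous left and virgin right, with library codes), as the difference from the gene's mean over all libraries. Virgin 1 and virgin 7 are low and virgin 2 and virgin 8 high down nearly the whole column. Multiparous 5 to 8 are mostly low, while multiparous 3, virgin 3 and virgin 6 are mostly high.

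Summed over the 36 members, the level was 6579 ± 333 CPM in multiparous libraries and 6928 ± 426 CPM in virgin ones (SD, n = 8 each), a ratio of the means of -0.07 on the log2 scale. The multiparous sums were 6673, 6828, 7141, 6756, 6461, 6134, 6246 and 6396 CPM in libraries 1 to 8. The virgin sums were 6232, 7338, 7127, 6869, 6835, 7216, 6414 and 7394 CPM in the same order. All but 1 of the multiparous sums lay below the virgin mean, and the groups overlap. The sum of the peripheral arm over that of the membrane arm was 1.07 ± 0.03 in multiparous and 1.07 ± 0.02 in virgin hearts. Leaving out virgin 1 gave a log2 ratio of the sums of -0.10 and leaving out virgin 8 gave -0.06, the ends of the range over all 16 libraries left out.

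**Figure D4:**
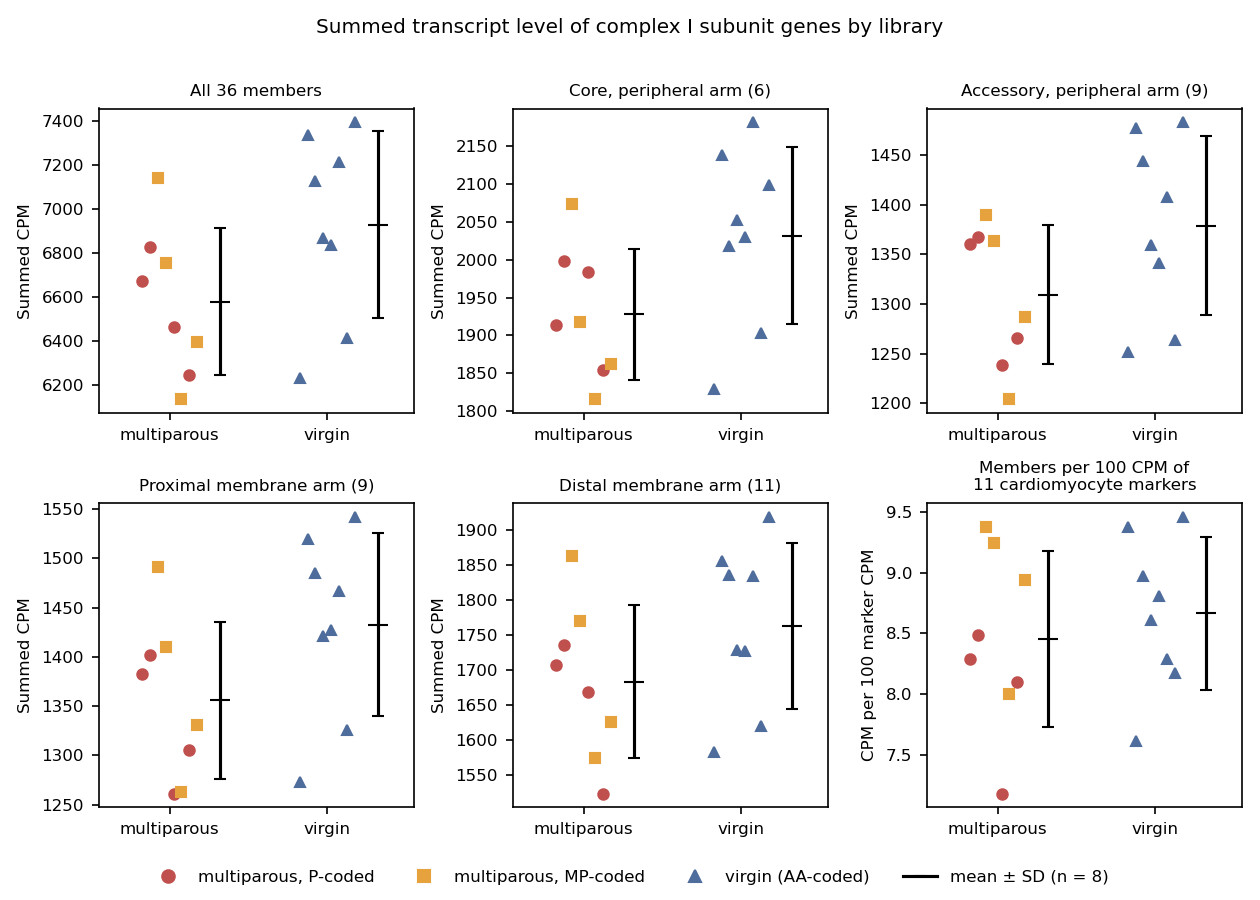
Summed CPM of all members and of 4 structural groups in each library, and the members' sum per 100 CPM of the 11 cardiomyocyte markers, with the mean and SD of 8 libraries beside each group and symbols for the library codes. Axes do not start at 0. Multiparous and virgin libraries overlap in every panel, and the virgin sum is lowest in virgin 1 for all members and for each structural group shown.

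The size of this difference depended on the scaling. The TMM factor averaged 1.01 in multiparous and 0.989 in virgin libraries and was highest in virgin 1 (1.065) and multiparous 6 (1.061). Without factors, the members summed to 6647 ± 177 CPM in multiparous libraries and 6834 ± 266 CPM in virgin ones, and 28 of the 36 members kept a log2 fold change below 0. Ndufs4, Ndufa5, Ndufa6, Ndufb3, Ndufb4 and Ndufb6 turned to between 0.00028 and 0.03 in that setting. The median of all genes there was 0.03 and that of the members -0.03, so that 34 members lay below the median of all genes, against 33 with TMM. Virgin 1 summed to 6629 CPM without factors, where virgin 7 was the lowest virgin library at 6449 CPM. With 3 other scalings, 34 members lay below 0 as with TMM.

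No marker of cardiomyocytes, atria, fibroblasts, endothelium, smooth muscle and pericytes or leukocytes was called between the groups. Below 0 lay 2 of 6 endothelial markers (1 without scaling factors) and 3 of 6 smooth muscle and pericyte markers. Among atrial markers, 2 of the 3 tested lay below 0 (1 without scaling factors). Of the 11 cardiomyocyte markers, 10 had a log2 fold change below 0 (6 without scaling factors), with a median of -0.07. Of the 6 fibroblast markers 4 lay above 0 (5 without scaling factors), with a summed level of 641 to 880 CPM in multiparous and 598 to 749 CPM in virgin libraries. All 6 leukocyte markers lay above 0 and summed to 76.9 to 129 CPM in multiparous and 65.6 to 168 CPM in virgin libraries. That direction was not shared by the codes, since 6 of 6 lay above 0 for MP-coded over virgin hearts and 1 of 6 for P-coded over virgin hearts. The top of the virgin leukocyte range was virgin 1, and the next virgin library, virgin 5, reached 92.1 CPM. Virgin 1 also had the lowest cardiomyocyte marker sum of all 16 libraries, 66464 CPM. The part of these cell markers in the members' values was not tested. Per 100 CPM of cardiomyocyte markers, the members summed to 8.45 ± 0.73 CPM in multiparous libraries and 8.66 ± 0.63 CPM in virgin ones. The ranges were 7.18 to 9.38 CPM in multiparous and 7.61 to 9.46 CPM in virgin libraries. Ttn and Myh6 weigh most in this marker sum, with means of 21885 and 20360 CPM in multiparous and 21871 and 20694 CPM in virgin libraries. Their log2 fold changes were 0.0009 and -0.02.

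Between the library codes of the multiparous hearts, 0 members were called, against 2 of all tested genes (0.0112%). MP-coded over P-coded hearts, 13 of the 36 members had a log2 fold change below 0, against 50.4% of all tested genes, and the members' median was 0.03. The count of 13 became 5 without multiparous 6 and 8 without multiparous 2. No member stood at an unadjusted p under 0.05, as 9.18% of all tested genes did. Ndufa5, an accessory subunit of the peripheral arm, had the smallest adjusted p of the members, at 75.6 ± 11.7 CPM in MP-coded and 66.5 ± 5.86 CPM in P-coded hearts (n = 4 each, log2 fold change 0.18, 95% interval -0.06 to 0.43, edgeR adjusted p = 0.668). The ratio of the peripheral to the membrane arm ran from 1.032 to 1.065 in MP-coded and from 1.06 to 1.103 in P-coded hearts, ranges that overlap slightly. Both codes were also set against the same 8 virgin hearts, so their values share controls. P-coded over virgin hearts, 35 members lay below 0 (51.6% of all tested genes) with a median of -0.07. No member was called, against 0.298% of all tested genes, and 3 stood below 0 at an unadjusted p under 0.05 (4.20% of all tested genes). The smallest edgeR adjusted p was 0.537 (Ndufa10, log2 fold change -0.14). MP-coded over virgin hearts, 31 members lay below 0 (52.3% of all tested genes) with a median of -0.05, and none was called (0.00561% of all tested genes), with 1 at an unadjusted p under 0.05 (9.40% of all tested genes in either direction). The smallest edgeR adjusted p there was 0.525 (Ndufa4, log2 fold change -0.12). In 30 members the value lay below 0 in both.

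The assembly factors, proteins that build the complex but do not stay in it, also mostly had values below 0. Of 20 listed, 19 had a row and were tested, 18 with a log2 fold change below 0 (14 without scaling factors), against 51.4% of all tested genes, and the median was -0.06. None was called, and 3 were lower at an unadjusted p under 0.05, against 4.09% of all tested genes. Foxred1, an oxidoreductase-like factor, measured 43.56, 48.13 and 51.72 CPM at its lowest, median and highest in multiparous hearts, against 47.99, 52.34 and 54.09 CPM in virgin hearts. Its log2 fold change was -0.12 (SE 0.04, edgeR adjusted p = 0.315). Ndufaf1, an early factor of the membrane arm, measured 34.67, 38.37 and 41 CPM in multiparous hearts, against 36, 42.32 and 43.96 CPM in virgin libraries (log2 fold change -0.13, SE 0.04, edgeR adjusted p = 0.351). The virgin mean of Ndufaf1 was 41.7 CPM, above each multiparous library, and that of Foxred1 was 51.6 CPM, above 7 of 8. The only factor above 0 with TMM scaling was Ndufaf5, known in human cells to modify the Ndufs7 protein, at 10.6 ± 0.82 CPM in multiparous libraries and 10.6 ± 1.17 CPM in virgin ones.

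Of the factors that drive respiratory chain genes and mitochondrial DNA, 21 were tested, 11 with a log2 fold change below 0 (9 without scaling factors) and a median of -0.01. None was called, and 3 stood at an unadjusted p under 0.05 in either direction (8.12% of all tested genes). The YY1 letters stand in the windows of Ndufa9, Ndufc1, Ndufs4, Ndufs6 and Ndufs7, and no link between these genes and Yy1 was tested. Yy1 measured 49.14, 52.04 and 55.12 CPM at its lowest, median and highest in multiparous hearts, against 47.3, 49.47 and 52.95 CPM in virgin hearts. Its log2 fold change was 0.08 (SE 0.03, edgeR adjusted p = 0.498). Ppargc1b, a coactivator of mitochondrial genes, measured 57.4 ± 9.53 CPM in multiparous libraries and 53.2 ± 5.77 CPM in virgin ones (log2 fold change 0.11, edgeR adjusted p = 0.817). Polrmt, the mitochondrial RNA polymerase, measured 31.1 ± 2.46 CPM in multiparous libraries and 33.7 ± 2.00 CPM in virgin ones (log2 fold change -0.11, edgeR adjusted p = 0.565). Gabpb1, a subunit of the GABP factor, measured 12.6 ± 1.09 CPM in multiparous libraries and 13.7 ± 0.96 CPM in virgin ones (log2 fold change -0.12, edgeR adjusted p = 0.614).

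The 7 subunits encoded by mitochondrial DNA could not be set beside the nuclear ones. Their genes, mt-Nd1 to mt-Nd6 and mt-Nd4l, had a count of 0 in every library, while nuclear genes that carry copies of them had high counts. On chromosome 1, Gm28439 holds 62.2% of the 50-base words of mt-Nd4, Gm28438 holds 98.0% of those of mt-Nd3, and Gm10222 holds 98.8% of those of mt-Nd4l. Gm28439 measured 4816 ± 816 CPM in multiparous libraries and 4608 ± 577 CPM in virgin ones (log2 fold change 0.06, edgeR adjusted p = 0.923). Gm28438 measured 3302 ± 444 CPM in multiparous libraries and 3335 ± 315 CPM in virgin ones (log2 fold change -0.01, above 0 without scaling factors, edgeR adjusted p = 0.986). Gm10222 measured 558 ± 108 CPM in multiparous libraries and 529 ± 102 CPM in virgin ones (log2 fold change 0.07, edgeR adjusted p = 0.930). Whether these counts come from mitochondrial transcripts was not tested, and no difference between them and the nuclear members was tested.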

How the data were processed

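RNA of the left ventricle was sequenced in 16 libraries. Per the labels' protocols, a stranded kit for total RNA was used, ribosomal RNA was depleted and both ends were read. Per the submitters' processing notes, STAR 2.7.11b and HTSeq 0.11.1 were among the tools and GRCm38.p6 was the build. The annotation release and strand setting were not given in the sources used here. As a starting point, the authors deposited raw counts per gene. Reads assigned to no gene, 26.5% to 33.1% of each library, entered neither library sizes nor tests.

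Counts were fitted with edgeR 4.0.16 in R 4.3.3 (TMM, filterByExpr, quasi-likelihood F-test, Benjamini-Hochberg over 17813 genes). Codes were compared in 1 fit with P, MP and AA as levels. CPM are scaled by TMM, and lists were described by counts and medians without a test. Coordinates, exon lengths, overlaps and shared 50-base words come from GENCODE M21 (GRCm38), and promoters from RefSeq. A count of 0 allows up to 3 counts, and such floors cover counting error only. The scripts were tested on simulated data.

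Values were given for the 6 members with the smallest p, members with a log2 fold change above 0, the 6 core members, the 2 highest and 2 lowest per kb, and Ndufa4; of assembly factors and of regulators, for up to 2 genes in each direction with the smallest p. Ndufb7 and Ndufb2 are the 2 lowest. Other members are given by range or as examples chosen after their values were seen, as were the 3 nuclear copies of mitochondrial genes. The members, lists and tests were chosen with earlier results of these data known. DESeq2 1.42.0, limma 3.58.1, other factors and filters, a replicate block and leaving out libraries were the alternatives. No 2 libraries of a group agreed within sampling noise: chi-square per degree of freedom was at least 9.68 over 56 pairs.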

Additional observations from a re-analysis of the deposited data

Results flagged for a closer look

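In 88 groups of values, the highest or lowest library was set against the nearest other by Dixon's ratio, and 2 of them passed the critical value of 0.526 for 8 libraries. Chance flags about 1 in 20 groups. Ndufa8, a subunit of the proximal membrane arm, measured 146.5 CPM in multiparous 5, and the next multiparous library measured 164.8 CPM, a gap of 0.598 of the range. Ndufa10 measured 562.5 CPM in multiparous 3, the next library 516.1 CPM, a gap of 0.528 of the range. Multiparous 3 had the highest summed level of the members among multiparous hearts. Over all libraries left out, the log2 fold change of Ndufa10 ran from -0.16 (without virgin 1) to -0.11 (without virgin 6). The cause of either value was not tested.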

How the results depend on the processing

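In every alternative run, 0 members, 0 assembly factors and 0 regulators were called. Between multiparous and virgin hearts, the 2 genes called became 0 without factors, 56 without a filter on low counts, 254 with DESeq2, 33 with the replicate block, 97 with P-coded libraries alone, 0 with MP-coded libraries alone and 0 with the kidney covariate. Leaving out 1 library gave 0 to 55: 55 without virgin 7, 33 without virgin 5, 24 without multiparous 3, 23 without virgin 1, 5 without virgin 2, 1 without multiparous 7 or virgin 6, and 0 without any other. MP-coded over P-coded hearts, the 2 genes called became 0 without factors, 22 with multiparous libraries only and 171 with DESeq2, and 0 to 27 with 1 multiparous library left out. P-coded over virgin, 53 became 264 without a filter, 348 with DESeq2 and 0 to 60 with 1 multiparous library left out. MP-coded over virgin, 1 became 4 without factors, 6 without a filter, 119 with DESeq2 and 0 to 1 with 1 multiparous library left out. The cause of these shifts was not tested. Members below 0 numbered 32 to 35 with 1 library left out, 28 without factors, 28 with MP-coded libraries alone and 34 with the replicate block, and 5 to 18 for MP-coded over P-coded hearts. The smallest edgeR adjusted p of a member ran from 0.116 (without virgin 1) to 0.681 (without virgin 2). Replicate numbers did not pair the libraries: same-number correlations ran from -0.106 to 0.291, and 1 of 8 libraries correlated best with its own number.

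Of 448 values of the named members, 441 kept their direction and 7 turned, none past the threshold. Those were Ndufc2 (-0.045 with P-coded libraries alone, -0.018 to 0.049 with 1 library left out), Ndufs7 (0.0028 with MP-coded libraries alone) and Ndufa13 (-0.0045 with the kidney covariate). Of 196 values of the other named genes, 13 turned: Ndufaf5 (-0.00072 without a filter, -0.00040 with DESeq2, -0.0093 with limma voom, -0.083 with P-coded libraries alone, -0.026 to 0.040 with 1 library left out) and Ppargc1b (-0.055 with MP-coded libraries alone, -0.041 with the kidney covariate). Depth limited no member, at 1610 counts or more per library; the spread between 8 libraries in each group set the intervals.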

Other observations

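Expressed copies and relatives whose symbol is a member's name with a suffix had low counts, and none was called. Copies with other names were not measured here. Among them are Gm12251 for Ndufs3, BC002163 for Ndufs5, Gm15920 for Ndufa12, Gm49356 for Ndufb9 and Gm4459 for Ndufab1. Ndufs6b, which shares 50-base words with Ndufs6, measured 4.38 ± 0.85 CPM in multiparous libraries and 4.66 ± 0.54 CPM in virgin ones (log2 fold change -0.09, edgeR adjusted p = 0.883). Ndufa12-ps measured 3.76 ± 0.48 CPM in multiparous libraries and 4.05 ± 0.43 CPM in virgin ones, and Ndufb4c, which shares words with Ndufb4, measured 2.92 ± 0.52 CPM in multiparous libraries and 2.78 ± 0.32 CPM in virgin ones. In 6 members, Ndufb9, Ndufa12, Ndufs5, Ndufs3, Ndufb4 and Ndufab1, over 10% of the 50-base words occur in other genes, with the highest share in Ndufb4 at 37.0%.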
